A study of Saccharomyces cerevisiae with 8 samples.

Results

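The genes HXT1 to HXT10 encode hexose transporters of the budding yeast Saccharomyces cerevisiae. They were taken by systematic name, YHR094C, YMR011W, YDR345C, YHR092C, YHR096C, YDR343C, YDR342C, YJL214W, YJL219W and YFL011W in the order HXT1 to HXT10, and all 10 were found among the 7122 features of the deposited count table. RNA was sequenced from 8 log-phase cultures, 2 biological replicates in each of 4 groups. The first group received clioquinol, abbreviated CQ, a metal-binding drug of the hydroxyquinoline class, at 0.8 µM. The second received 10{3,3,1}, the active DHPM-thione (dihydropyrimidine-thione) of the labels, and the third the thione 11, labelled inactive, each at 20 µM. The fourth received only the solvent DMSO. All groups shared the W303 strain with pdr1 and pdr3 deleted, synthetic galactose medium, 30 °C and about 6 h of exposure. Pdr1 and Pdr3, the activators of yeast multidrug efflux, are therefore missing everywhere, so the DMSO cultures are not a wild-type state, and every result below applies to this strain on galactose. The growth protocol of the labels names a wild-type yeast and doses in mM; the deletion strain and µM doses used here come from the sample characteristics and the design text.

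Hxt proteins sit in the plasma membrane and let glucose and related sugars pass down their concentration gradient. The family divides the work by affinity: Hxt1 and Hxt3 serve at high glucose, Hxt2 and Hxt4 at lower glucose, and Hxt6 and Hxt7 take up glucose when it is scarce. Hxt5 is known from slowly growing and starved cells, and Hxt8, Hxt9 and Hxt10 are minor members on glucose. Without glucose the repressor Rgt1, with Mth1 and Std1, holds several HXT genes down, and the membrane sensors Snf3 and Rgt2 relieve that hold when glucose is present. Mig1 represses some of the same genes at high glucose. Galactose itself enters mainly through Gal2, a close relative of the Hxt proteins.

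Depth was sufficient for the higher members and thin for the lowest. Library totals ran from 12076141 to 19021672 counts. PDR1 and PDR3 had 0 counts in all 8 libraries, as the strain label gives. Levels are given as CPM, counts scaled to a total of 1e6 per library, scaled between libraries with TMM factors of 0.97 to 1.03. Galactose growth was visible in GAL2, at 5414 to 9176 CPM over the 8 libraries. The 4 genes specific to alpha cells, 1 of the mating types of yeast, summed to 544 to 861 CPM with CQ, 1070 to 1335 with the active thione, 1063 to 1095 with the inactive thione and 1503 to 1844 CPM in DMSO. The 6 genes specific to a cells summed to 25.3 to 34.3 CPM over all libraries, and 1 or 2 of them were at 0 counts in each group. The libraries are bulk RNA, in which fewer cells that express a gene and less of its RNA per cell cannot be told apart.

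HXT6 and HXT7 are nearly the same sequence, which decides what their counts can show. Both coding sequences are 1713 bases long, on the minus strand of chromosome IV in assembly R64 (sacCer3), HXT6 at 1159608 to 1161320 and HXT7 at 1154216 to 1155928. They differ at 3 positions, T1632C, G1666A and T1677C, counted from 1 at the start codon with the HXT6 base first and the HXT7 base last. The 65 bases holding all 3 differences are shown because, within the coding sequence, only reads over this end can tell the copies apart. Sequence outside the coding regions was not aligned. Capitals mark the differing bases, and the sequences run 5′ to 3′ on the coding strand (RefSeq R64, chrIV:1159635-1159699 and chrIV:1154243-1154307, minus strand).
HXT6: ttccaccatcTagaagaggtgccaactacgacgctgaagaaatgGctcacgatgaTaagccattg
HXT7: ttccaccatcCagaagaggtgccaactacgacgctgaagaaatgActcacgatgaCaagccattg

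Each coding sequence was cut into all its overlapping stretches of 50 bases, and each stretch was looked up in the whole genome on both strands. In HXT6 and in HXT7, 82 of 1664 stretches (4.93%) occurred nowhere else. With stretches of 100 bases the share was 5.08%. HXT9 was the other member with much shared sequence, with 38.1% of its 50-base stretches unique and the rest found mainly in HXT11 and HXT12. HXT2, HXT8 and HXT10 were unique throughout, and HXT1, HXT3, HXT4 and HXT5 were 85.1% to 97.5% unique. Genes without unique sequence mostly had no counts in the deposited table. Of 81 genes of at least 300 bases with no unique 50-base stretch, 77 had 0 counts in all 8 libraries, against 32 of 5254 genes whose stretches were all unique. The levels of HXT6, HXT7 and HXT9 below may therefore leave out reads of the shared stretches, are uncertain as whole-gene levels, and are compared with other genes with that limit. The genome is that of S288C, and whether W303 carries the same bases at the 3 positions was not tested.

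**Figure D1:**
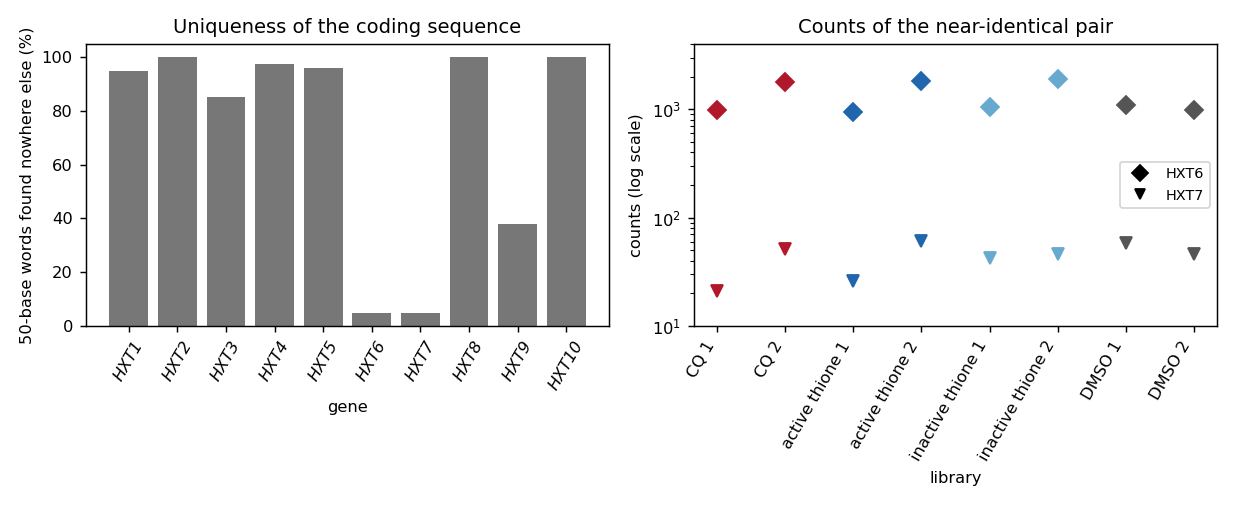
Left, the percentage of 50-base stretches of each coding sequence that occur nowhere else in the genome; HXT6 and HXT7 stand at 4.93%, HXT9 at 38.1% and the other members at 85.1% or more. Right, the counts of HXT6 (diamonds) and HXT7 (triangles) in each library on a log axis; HXT6 lies between 934 and 1914 counts and HXT7 between 21 and 61.

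Upstream of the start codons, matches to the Rgt1 motif were most frequent at HXT3, and HXT10 had none. The 800 bases before each start codon were searched on both strands for CGGANNA (Rgt1) and for 4 forms of the Mig1 core, namely CCGGGG, then CTGGGG, then GCGGGG and lastly GTGGGG. Of 6016 protein-coding genes with a full window, 58.2% held an Rgt1 match and 35.8% a Mig1 match. HXT3 had 8 Rgt1 matches, a number reached by 0.0166% of windows, its own included, and HXT1 and HXT8 had 6 each, a number reached by 0.183%. HXT5 had 4 (reached by 1.96%), HXT2, HXT4 and HXT9 3 each, HXT7 2, HXT6 1 and HXT10 0. For Mig1, HXT2 and HXT4 had 4 matches each, a number reached by 0.499% of windows, HXT6 3, HXT1, HXT3 and HXT7 2 each, and HXT5, HXT8, HXT9 and HXT10 1 each. No Rgt1 match overlapped a Mig1 match, and the 1 overlap among all motifs was of a Mig1 and a CACCC match at HXT4. Another 3 motifs were searched in the same windows, AGGGG (the stress element of Msn2 and Msn4, in 48.1% of all windows), CCAAT (the Hap complex, 81.5%) and CACCC (the core of the Aft1 and Aft2 site, 49.6%). HXT2 held none of the 3 motifs. HXT5 held 2 AGGGG, 1 CCAAT and 1 CACCC match, and HXT10 held 1 AGGGG, 2 CCAAT and no CACCC match. A match is a stretch of letters and was not tested as a binding site.

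Bases 580 to 281 before the start codon are shown for the 3 members whose counts changed with CQ, because this stretch holds most of their Rgt1 and Mig1 matches; it was chosen after the matches were seen. Capitals mark Rgt1 and Mig1 matches on either strand, and each sequence runs 5′ to 3′ towards its gene (RefSeq R64). HXT2 is at chrXIII:287499-287798, plus strand, with 3 Rgt1 and 2 Mig1 matches. HXT5 is at chrVIII:296728-297027, minus strand, with 3 Rgt1 and 0 Mig1 matches. HXT10 is at chrVI:111765-112064, plus strand, with 0 Rgt1 and 1 Mig1 match.
HXT2: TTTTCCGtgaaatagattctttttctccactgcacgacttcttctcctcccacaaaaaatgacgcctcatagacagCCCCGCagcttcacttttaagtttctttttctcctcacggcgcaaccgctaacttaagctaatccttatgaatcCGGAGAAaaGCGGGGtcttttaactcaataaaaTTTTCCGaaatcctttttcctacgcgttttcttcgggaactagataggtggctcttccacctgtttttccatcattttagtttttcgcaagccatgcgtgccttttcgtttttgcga
HXT5: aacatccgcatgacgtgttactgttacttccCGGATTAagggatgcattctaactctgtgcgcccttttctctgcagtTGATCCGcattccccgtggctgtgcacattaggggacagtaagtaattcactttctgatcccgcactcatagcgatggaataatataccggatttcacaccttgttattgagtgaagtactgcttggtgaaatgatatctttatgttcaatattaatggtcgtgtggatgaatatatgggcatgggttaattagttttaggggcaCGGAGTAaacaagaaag
HXT10: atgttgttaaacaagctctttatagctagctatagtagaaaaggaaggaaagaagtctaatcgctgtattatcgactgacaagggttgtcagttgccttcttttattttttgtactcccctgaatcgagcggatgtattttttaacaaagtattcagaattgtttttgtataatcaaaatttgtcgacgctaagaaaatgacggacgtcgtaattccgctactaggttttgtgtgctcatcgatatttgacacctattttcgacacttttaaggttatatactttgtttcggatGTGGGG

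**Figure D2:**
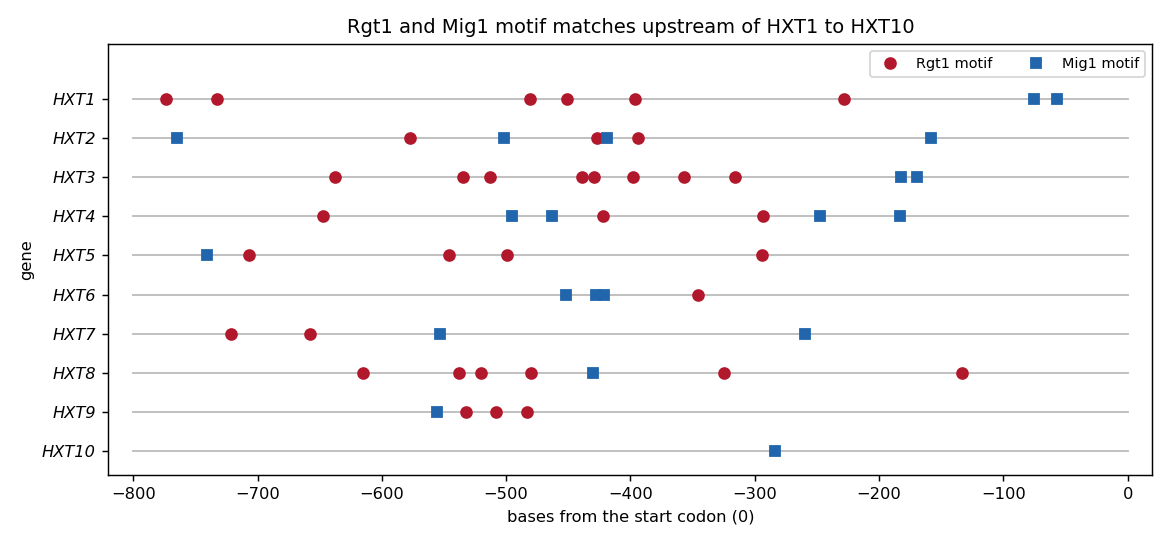
Positions of Rgt1 (circles) and Mig1 (squares) motif matches in the 800 bases before each start codon, with 1 row per gene. HXT3 carries 8 Rgt1 matches and HXT10 none.

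HXT6, HXT5, HXT2 and HXT4 were the higher members as counted, and all members as counted lay below GAL2. Compared per kb of coding sequence, HXT6 was the highest member, at 30.6 to 80.7 CPM per kb over the 8 libraries. HXT5 followed at 7.68 to 40.8, HXT2 at 3.94 to 15.6 and HXT4 at 6.13 to 9.80 CPM per kb. HXT3 lay at 1.93 to 4.29 and HXT7 at 0.660 to 2.46 CPM per kb, and HXT10 at 0.132 to 4.17. Each of these ranges overlapped that of the next member in the list except for HXT4 and HXT3. The ranges alone thus give broad steps of the order as counted and not single ranks. Within each library HXT6 lay above HXT5 and HXT3 above HXT7, as counted. Of the 50-base stretches of HXT7 95.1% are shared, as for HXT6, so its level and its place in this order may be too low. GAL2 stood at 3139 to 5320 CPM per kb. No multiple over the members is given, since HXT6 leads their sum and 95.1% of its 50-base stretches are shared, so its level per full coding length may be many times too low.

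HXT1, HXT8 and HXT9 were close to the floor of detection, which is 3 counts in a library, or 0.158 CPM in the deepest and 0.248 in the shallowest. HXT1, a low-affinity carrier of high-glucose cells, had 1 and 2 counts with CQ, 0 and 1 with the active thione, 3 and 2 with the inactive thione and 0 and 3 in DMSO. HXT9, which is known as a target of Pdr1 and Pdr3, had 3 and 0 counts with CQ, 2 and 4 with the active thione, 2 and 2 with the inactive thione and 3 and 3 in DMSO. In stretches of 50 bases HXT1 was 95% unique and HXT9 38.1%, and in stretches of 100 bases HXT1 was 98.8% unique and HXT9 52.9%. HXT8 had 9 and 6 counts with CQ, 8 and 11 with the active thione, 4 and 3 with the inactive thione and 8 and 6 in DMSO. Both active thione libraries of HXT8 lay above both inactive thione libraries (0.714 ± 0.0625 against 0.252 ± 0.0492 CPM, SD, n = 2 each). When all features with a count were tested this difference had an unadjusted edgeR p of 0.0425 and did not pass (adjusted p = 1.00). These 3 genes did not pass the filter on low counts, and the other 7 members did, HXT10 also when the CQ libraries were left out of the filter.

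**Figure D3:**
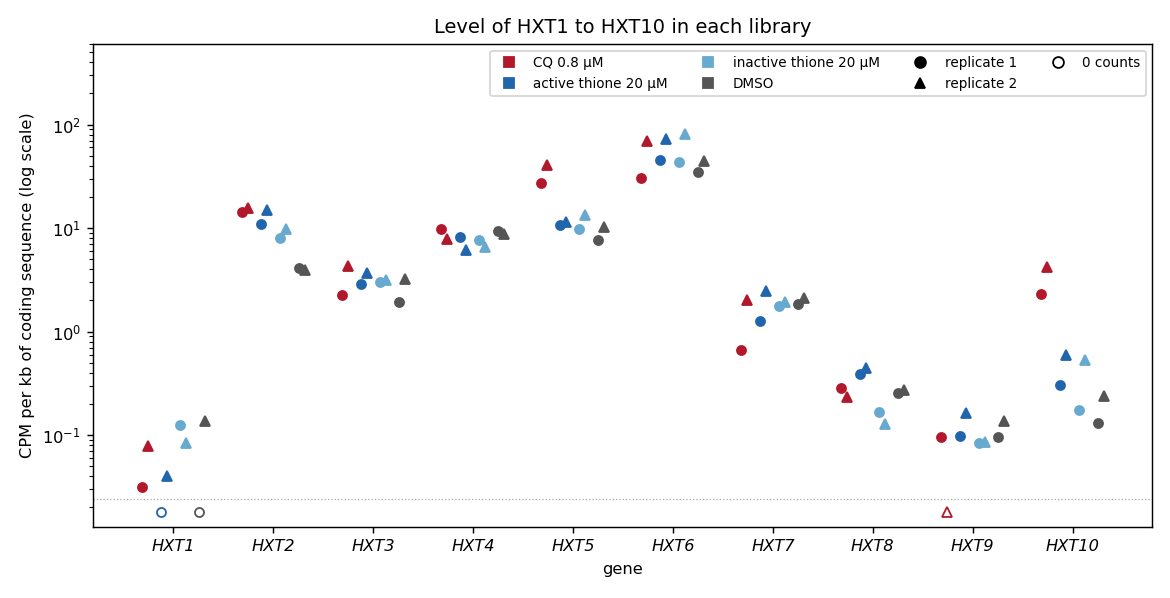
Level of each gene in CPM per kb of coding sequence (log axis), with 1 point per library; colours give the groups, circles replicate 1, triangles replicate 2, and open symbols below the dotted line libraries with 0 counts. The CQ points of HXT10 and HXT5 lie above all other libraries of those genes, and HXT1 and HXT9 lie near the floor.

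With CQ, HXT2, HXT5 and HXT10 rose and no member fell. Of the 7 tested members 3 rose, 0 fell and 4 did not pass, beside 4.92% of 5696 tested features that rose, 8.39% that fell and 13.3% that changed in either direction. Both CQ libraries lay above both DMSO libraries in these 3 genes alone among the 7, which was so for 29.5% of all features. No member had both CQ libraries below both DMSO libraries, beside 27.6% of all features. The median log2 fold change of the 7 was 0.35, against 0.03 over all tested features. Tests are edgeR's quasi-likelihood test, two-sided, with Benjamini-Hochberg adjustment over all tested features and 0.05 as threshold. The share of all features at an unadjusted p under 0.05 was not computed, so counts at that level below have no background. In either direction 758 features were called. Leaving out CQ replicate 2 gave 1419, and leaving out the first or the second DMSO library gave 367 or 404.

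HXT10 (chromosome VI, 112345 to 113985, plus strand) showed the largest fold difference of the 7. It had 71 and 102 counts with CQ, 6 and 14 with the active thione, 4 and 12 with the inactive thione and 4 and 5 in DMSO. As levels these were 3.83 and 6.84 CPM with CQ, 0.503 and 0.965 with the active thione, 0.286 and 0.867 with the inactive thione and 0.216 and 0.391 CPM in DMSO. Both CQ libraries exceeded every other library by more than 3 times, and the other 3 groups overlapped one another apart from the active thione and DMSO. The rise with CQ was 17.8-fold (95% interval 7.12 to 44.4), a log2 fold change of 4.15 ± 0.59 (SE, adjusted p = 0.00118). The few counts in DMSO make the size of this fold uncertain by the width of that interval. It stayed called in every fit that left out 1 library (log2 fold change 3.65 to 4.57). HXT10 remained a low transcript even with CQ, at 3.25 ± 1.30 CPM per kb (SD, n = 2), against 0.185 ± 0.0753 CPM per kb in DMSO.

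HXT5 (chromosome VIII, 294669 to 296447, minus strand), the member of slow growth, had 48.1 and 72.6 CPM with CQ and 13.7 and 18.4 CPM in DMSO. The CQ libraries stood above all 6 others, since the active thione libraries had 19.1 and 20.3 CPM and the inactive thione libraries 17.5 and 23.8. The rise was 3.78-fold (95% interval 2.55 to 5.60), or 1.92 ± 0.25 on the log2 scale (SE, adjusted p = 0.000756). In the list of 10 genes of slow growth and stationary phase, of which 9 were tested, 4 rose with CQ and 1 fell, beside 4.92% and 8.39% of all features. Their median log2 fold change was 0.14. HSP26 (a small heat-shock protein) rose by 2.70 ± 0.27 and GRE1 by 1.70 ± 0.26 on the log2 scale (SE), while CTT1, the cytosolic catalase, a haem enzyme, had a log2 fold change of -3.62 ± 0.27. SSA3 and SIP18 also rose, but SSA3 lost its call in fits without 1 library (adjusted p up to 0.226), as did SIP18 (up to 0.121). The summed level of the 10 genes was 232 to 305 CPM with CQ against 205 to 232 CPM in DMSO. In the other comparisons edgeR called 0 of the 9. With the active thione against DMSO their median was -0.54, 6 had an unadjusted p under 0.05 and DESeq2 called GRE1 and HSP12. Between the active and inactive thiones the median was -1.05, 6 had an unadjusted p under 0.05 and DESeq2 called GRE1, HSP12 and HSP26. With the inactive thione against DMSO the median was 0.33, 2 had an unadjusted p under 0.05 and DESeq2 called 0. Without the share of all features at an unadjusted p under 0.05, it cannot be said whether those counts are unusual. The part of this list in the result for HXT5 was not tested.

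HXT2 (chromosome XIII, 288079 to 289704, plus strand), a carrier of moderately high affinity, had 23.0 and 25.3 CPM with CQ and 6.70 and 6.41 CPM in DMSO. The groups did not overlap, and the rise was 3.68-fold (95% interval 2.59 to 5.23), 1.88 ± 0.23 on the log2 scale (SE, adjusted p = 0.000398). Leaving out any 1 library gave log2 fold changes of 1.78 to 1.94, all called.

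The remaining tested members overlapped between CQ and DMSO. HXT3, a low-affinity carrier, had 3.83 and 7.31 CPM with CQ and 3.29 and 5.47 CPM in DMSO, and HXT4 had 16.97 and 13.6 CPM with CQ and 16.1 and 15.2 CPM in DMSO. HXT6 had 52.5 and 119 CPM with CQ, a spread wide enough to enclose the 59.7 and 76.6 CPM of DMSO. HXT7 had 1.13 and 3.42 CPM with CQ and 3.13 and 3.59 CPM in DMSO. The 95% intervals of the log2 difference were -0.47 to 1.18 for HXT3, -0.53 to 0.47 for HXT4, -0.57 to 1.22 for HXT6 and -1.68 to 0.51 for HXT7, so a change of 2-fold in 1 direction lay within the interval of each except HXT4. HXT7 was called lower without CQ replicate 2 (log2 fold change -1.59, adjusted p = 0.0358).

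**Figure D4:**
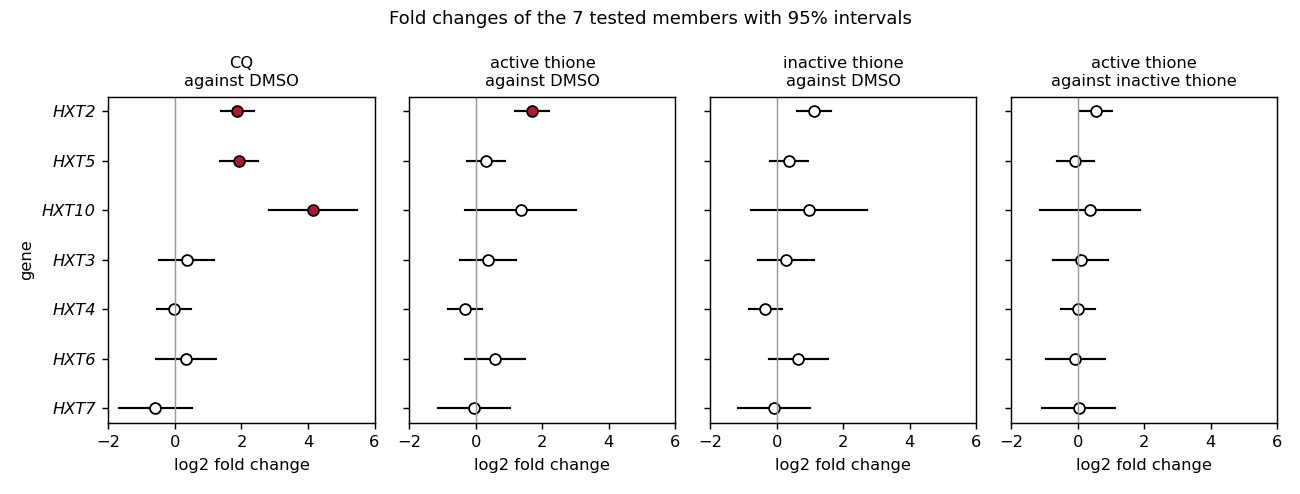
Log2 fold change of the 7 tested members in each of the 4 comparisons; bars are 95% intervals and filled points passed the threshold of 0.05 on the adjusted p. HXT2, HXT5 and HXT10 are filled for CQ, HXT2 alone for the active thione, and none in the other comparisons.

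With the active thione HXT2 rose and no other tested member passed. Of 7 tested, 1 rose and 0 fell, beside 1.11% of all features that rose, 0.263% that fell and 1.37% that changed. HXT2 had 17.7 and 24.4 CPM with the active thione and 6.70 and 6.41 CPM in DMSO, without overlap. It rose 3.21-fold (95% interval 2.26 to 4.57), or 1.68 ± 0.23 on the log2 scale (SE, adjusted p = 0.0106). The call was lost without active thione replicate 2 (adjusted p = 0.0881), DMSO replicate 1 (0.124) or DMSO replicate 2 (0.135), where log2 fold changes were 1.43, 1.71 and 1.65. Those fits called few features at all, 7, 4 and 9 in place of 78, and the count was 27 without active thione replicate 1, 45 without inactive thione replicate 1 and 43 without inactive thione replicate 2. The comparison of CQ with DMSO uses the same DMSO libraries, so the results for HXT2 with CQ and with the active thione are not independent.

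Of the other members, 4 had active thione and DMSO libraries that did not overlap. HXT5 had 19.1 and 20.3 CPM against 13.7 and 18.4 CPM in DMSO, HXT6 78.2 and 125 against 59.7 and 76.6, and HXT10 0.503 and 0.965 against 0.216 and 0.391, in each case with both treated libraries above both DMSO libraries. HXT4 had 14.2 and 10.6 CPM against 16.1 and 15.2 CPM in DMSO, with both treated libraries below. None of these passed (adjusted p from 0.459 to 0.614). Counting HXT2, 4 of the 7 members had both treated libraries above DMSO, where 29.8% of all features did, and 1 had both below, where 23.3% did. HXT3 and HXT7 overlapped between the groups, with 4.86 and 6.28 CPM with the active thione against 3.29 and 5.47 CPM in DMSO for HXT3, and 2.18 and 4.21 CPM against 3.13 and 3.59 CPM for HXT7.

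No member passed with the inactive thione against DMSO (0 of 7 rose, beside 0.140% of all features, and 0 fell, beside 0.0176%; 0.158% changed in either direction). At an unadjusted edgeR p under 0.05 there was 1 member, HXT2, and DESeq2 called 1 member. HXT2 had 13.0 and 15.8 CPM with the inactive thione, above the 6.70 and 6.41 CPM of DMSO in both libraries, as 32.2% of all features were higher. The difference was 2.19-fold (95% interval 1.54 to 3.12), with an unadjusted edgeR p of 0.000638 and an adjusted p of 0.151. DESeq2 called this gene (adjusted p = 0.00595). Only 9 of the 5696 features passed in this comparison, a count that ranged from 1, without DMSO replicate 1 or 2, to 18, without CQ replicate 1 or 2; it was 4 without either active thione library and 3 without inactive thione replicate 2. HXT4 had 13.4 and 11.3 CPM with the inactive thione, both below the 16.1 and 15.2 CPM of DMSO, as 26.4% of all features were lower, and did not pass (adjusted p = 0.486). The other 5 members overlapped, with 17.5 and 23.8 CPM with the inactive thione for HXT5, 75.2 and 138 for HXT6, 5.16 and 5.35 for HXT3, 3.01 and 3.32 for HXT7 and 0.286 and 0.867 for HXT10.

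The active and inactive thiones were compared at the same dose and time, and no member differed between them past the threshold (0 of 7 higher, beside 0.0878% of all features, and 0 lower, beside 0.0351%; 0.123% in either direction). DESeq2 also called 0 members, and 1 had an unadjusted edgeR p under 0.05. HXT2 came nearest, with 17.7 and 24.4 CPM with the active and 13.0 and 15.8 CPM with the inactive thione. Its active thione libraries both lay above its inactive thione libraries, as did those of 15.4% of all features (15.3% lay below, and 0 members did). The ratio was 1.46 (95% interval 1.04 to 2.05). The unadjusted p of edgeR's quasi-likelihood test was 0.0306 and the adjusted p 0.9997. For the other 6 members the log2 difference lay between -0.07 and 0.38. Their 95% intervals were -0.50 to 0.52 for HXT4, -0.63 to 0.50 for HXT5, -0.74 to 0.91 for HXT3, -0.96 to 0.82 for HXT6, -1.06 to 1.11 for HXT7 and -1.13 to 1.88 for HXT10. A 2-fold difference thus lay within the intervals of HXT2, HXT7 and HXT10, and that of HXT10 reached 3.67-fold. The 7 features called in this comparison became 4 without active thione replicate 2 and 3 without inactive thione replicate 2.

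In HXT2 the CQ and active thione libraries overlapped, the inactive thione libraries lay below both and the DMSO libraries lowest. This is a description of 2 libraries a group: the steps between the thiones and between the inactive thione and DMSO did not pass in the main edgeR fit. The step between the inactive thione and DMSO was called by DESeq2 and by edgeR with a term for replicate number. The CQ and thione doses differ, so no test was made between them. For HXT5 and HXT10 CQ stood alone at the top.

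Sums and shares of the family are of assigned counts, not of family RNA, because HXT6, with 35.0% to 69.4% of those counts, may lack most reads of its shared stretches. As counted, the make-up of the family differed most from DMSO in the CQ libraries, which follows from the called members. HXT2, HXT5 and HXT10 together made up 49.95% and 42.2% of the counts of the 10 genes with CQ, 27.1% and 23.65% with the active thione, 24.0% and 20.3% with the inactive thione and 19.9% and 19.8% in DMSO. The family summed to 150 and 248 CPM with CQ, 138 and 193 with the active thione, 128 and 199 with the inactive thione and 103 and 127 CPM in DMSO. HXT6 set most of the difference between replicates of that sum. It was higher in replicate 2 than in replicate 1 of every group, 2.26 times with CQ, 1.60 with the active thione, 1.84 with the inactive thione and 1.28 in DMSO. HXT3, HXT5, HXT7 and HXT10 were likewise higher in replicate 2 of every group, by 1.04 to 1.91, 1.07 to 1.51, 1.11 to 3.02 and 1.79 to 3.03 times in that order of genes. HXT4 was lower in replicate 2 of every group, at 0.746 to 0.942 times replicate 1, and HXT2 was mixed. The share of all features with 1 direction by replicate number in every group was not computed. Nothing particular to the family can therefore be read from these directions.

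**Figure D5:**
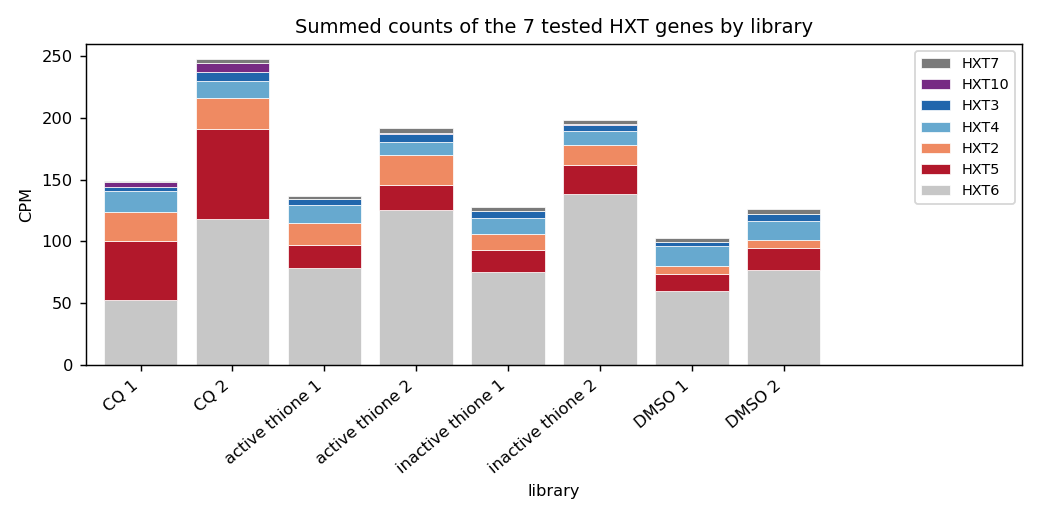
Stacked CPM of the 7 tested members in each library, in the order CQ, active thione, inactive thione and DMSO. The HXT6 segment is taller in replicate 2 than in replicate 1 of every group, and the HXT5 segment is tallest in the 2 CQ libraries.

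HXT6 and HXT7 had unequal counts although they have equally much unique coding sequence. HXT6 had 974 and 1768 counts with CQ, 934 and 1818 with the active thione, 1051 and 1914 with the inactive thione and 1105 and 981 in DMSO. HXT7 had 21 and 51 counts with CQ, 26 and 61 with the active thione, 42 and 46 with the inactive thione and 58 and 46 in DMSO. HXT7 thus held 2.11% and 2.80% of the pair's counts with CQ, 2.71% and 3.25% with the active thione, 3.84% and 2.35% with the inactive thione and 4.99% and 4.48% in DMSO. When the pair was summed into 1 feature, that feature neither rose nor fell in any of the 4 comparisons. The sum holds assigned counts only, nearly all of them from HXT6. It therefore does not recover reads of the shared stretches that may have been left out.

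Other genes of hexose handling were set beside the family. Of the 17 genes of glucose sensing and HXT repression, among them the sensors SNF3 and RGT2 and the repressors RGT1, MTH1, STD1 and MIG1, edgeR called 0 of 17 in each of the 4 comparisons. Over all features 13.3% were called with CQ, 1.37% with the active thione, 0.158% with the inactive thione and 0.123% between the thiones, so 0 of 17 or of a shorter list says little in the last 3. At an unadjusted p under 0.05 there were 3 with CQ, 1 with the active thione, 1 with the inactive thione and 0 between the thiones; DESeq2 called 1 with CQ, RGT1, and 0 in the others. RGT1 had 62.9 ± 6.11 CPM with CQ and 85.7 ± 2.21 CPM in DMSO (SD, n = 2 each). Its libraries did not overlap, and in edgeR its log2 fold change was -0.45 ± 0.14 (SE, adjusted p = 0.0606). The median log2 fold change of these genes with CQ was 0.04. Counts at an unadjusted p under 0.05, here and in the lists below, have no share of all features beside them. The hexose-phosphorylating genes HXK1, HXK2, GLK1 and EMI2 had log2 fold changes of 0.33 to 0.74 with CQ, 0.56 to 0.87 with the active thione and 0.32 to 0.98 with the inactive thione against DMSO, and 0 of 4 passed in each, with 1 at an unadjusted edgeR p under 0.05 in each and 0 called by DESeq2. Of the other 11 sugar and polyol transporters 4 passed the filter, GAL2, STL1, MAL11 and MAL31, and edgeR and DESeq2 called 0 in each of the 4 comparisons, with 1 at an unadjusted p under 0.05 in each but the inactive thione against DMSO, which had 0. GAL2 had 5414 and 8326 CPM with CQ and 5671 and 6736 CPM in DMSO. HXT11 to HXT17 had at most 4 counts in any library. Their shares of unique sequence are not given here, and HXT11 and HXT12 share stretches with HXT9. Reads of shared stretches may therefore be missing from these counts.

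Of 11 glucose-repressed carbon genes 2 rose with CQ and 0 fell, beside 4.92% and 8.39% of all features. They were ADH2, an alcohol dehydrogenase, at 1.05 ± 0.26 on the log2 scale (SE), and PCK1, of gluconeogenesis, at 0.98 ± 0.21. Each lost its call in fits without 1 library (adjusted p up to 0.269 and 0.138). Of 7 galactose genes PGM2 rose with CQ (1.41 ± 0.41) and 0 fell. PGM2 lost its call without single libraries (adjusted p up to 0.296), had 0.64 without CQ replicate 2, and was not called by DESeq2 (adjusted p = 0.0648). DESeq2 instead called GAL7, with an edgeR log2 fold change of -0.48 ± 0.16 (SE, adjusted p = 0.0874). Neither list had an edgeR call in the other 3 comparisons; DESeq2 called 1 glucose-repressed gene with the active thione, SUC2, the invertase (1.496 ± 0.36 on the log2 scale, SE, edgeR adjusted p = 0.0985). RGT1, SUC2, GAL7 and HSP12 are named after their values were seen. In the list of 8 meiosis and sporulation genes, of which 7 were tested, SPO11 had a log2 fold change of -1.96 ± 0.26 and SPS4 one of -1.46 ± 0.23 with CQ, and both fell. All 4 alpha-cell genes fell with CQ, beside 8.39% of all features, of which MF(ALPHA)2 (-3.40 ± 0.30) and SAG1 (-2.53 ± 0.20, all SE) stayed called whichever library was left out, while STE3 and MF(ALPHA)1 did not (adjusted p up to 0.225 and 0.0983). SAG1 also fell with the active thione (-1.24 ± 0.19), a call lost without active thione replicate 2 (adjusted p = 0.0881), DMSO replicate 1 (0.136) or DMSO replicate 2 (0.141). With the inactive thione its log2 fold change was -0.89 ± 0.19, with libraries that did not overlap those of DMSO. EdgeR did not call it there (adjusted p = 0.176) and DESeq2 did, and 3 of the 4 alpha-cell genes had an unadjusted p under 0.05. Between the thiones SAG1 had -0.34 ± 0.19 (adjusted p = 0.9997). The part of these shifts in the HXT results was not tested.

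The features whose levels were most like those of the called members were found by Pearson correlation of log2 CPM over the 8 libraries, among 5059 features with an average log2 CPM of at least 3. For HXT2 they were PDI1 (r = 0.99), YHR138C (0.97) and PRE3 (0.97). For HXT5 they were YTP1, THI6 and ARA2 (r = 0.98 each). For HXT10 they were MMT2 (0.99), YTP1 (0.99) and ADE16 (0.98). The 8 points fall into 4 groups, of which CQ stands far from the rest for HXT5 and HXT10, so these values describe a shared pattern over few independent points.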

How the data were processed

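The authors deposited raw counts per annotated feature and, in the same table, a signal made by dividing each count by a size factor per library; the latter served only to check the table (recomputed factors differed by at most 5.3e-05). The tools listed in the submitters' processing notes are HTSeq, DESeq, TopHat and TopHat2 2.1.1, and the build is sacCer3. The sources used here do not state read length, strand setting, counting mode or annotation. No annotated gene of RefSeq R64 overlaps a member. The table has 4 empty lines, not analysed here. Counts were tested with edgeR 4.0.16 in R 4.3.3 (filterByExpr, TMM, quasi-likelihood, 1 term per group, all 8 libraries in 1 fit, 5696 features). SE was derived from the fold change and its F statistic (size of the log2 value over root F). Between replicates of a group the chi-square per degree of freedom was 23.3 to 105. It is a ratio of variances that features with high counts dominate, not a multiple of the noise of a single gene. The fit's common coefficient of variation between replicates, a spread relative to the level, was 0.153. Replicates counted as 2 samples. The procedure was also run on simulated counts with known changes, drawn independently for each library at the spread of the fit. Such counts lack the correlation between same-numbered libraries given below, so the simulation cannot check its effect. DESeq2 1.42.0 was an alternative. Sequences come from RefSeq R64; motif windows of 800 bases were read from that genome. The members and gene lists were chosen with earlier results of these data known. All members are named, with list genes past the threshold and the 3 features most like each called member.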

Additional observations from a re-analysis of the deposited data

How the results depend on the processing

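The 3 calls of HXT2, HXT5 and HXT10 with CQ were kept under median-of-ratios size factors, no filter, the replicate block and the compared groups alone. They were also kept with HXT6 and HXT7 summed, but that sum leaves the counts of these 3 genes unchanged and so cannot test them. In fits without 1 library their log2 fold changes ran from 1.78 to 1.94, 1.56 to 2.18 and 3.65 to 4.57 in that order. Fits without a thione library leave both compared groups whole and are weak checks of these calls. DESeq2 called HXT2 and HXT5 and gave HXT10 no adjusted p (log2 fold change 4.16, unadjusted p = 5.04e-08). Without 1 library the members called numbered 3 to 4 with CQ, 0 to 1 with the active thione, and 0 in the other comparisons. With the inactive thione 1 member was called by DESeq2 and 1 with the replicate block, in each case HXT2.

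Over all features, the calls without 1 library ranged from 367 to 1419 for CQ, 4 to 108 for the active thione, 1 to 18 for the inactive thione and 3 to 10 between the thiones. For CQ, DESeq2 called 973 features, the replicate block 952 and the compared groups alone 550, in place of 758. DESeq2 called 188, 84 and 27 features for the active thione, the inactive thione and between the thiones. The replicate block called 174, 54 and 13, and the compared groups alone 133 for the active thione. The cause was not tested. The replicate numbers share no stated batch; deviations of same-numbered libraries correlated at -0.15 (CQ and DMSO) to 0.50 (inactive thione and DMSO), and the 3 pairs among the thiones and DMSO at 0.39 to 0.50, so the numbers were not taken to pair all groups. With the block HXT2 with the inactive thione had a log2 fold change of 1.12 (adjusted p = 0.0440). With CQ and DMSO alone and the DMSO numbers crossed, chosen after seeing the data, 756 features and 3 members were called.

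Within each comparison, signs turned only for members that the main fit did not call in that comparison. Without 1 library the log2 fold change with CQ ran from -1.59 to 0.023 for HXT7, -0.21 to 0.75 for HXT3, -0.21 to 0.085 for HXT4 and -0.41 to 0.79 for HXT6. With the active thione it ran from -0.62 to 0.33 for HXT7. With the inactive thione it ran from -0.034 to 1.55 for HXT10, -0.054 to 0.67 for HXT3 and -0.18 to 0.015 for HXT7. Between the thiones it ran from -0.22 to 0.21 for HXT4, -0.45 to 0.42 for HXT6, -0.11 to 0.26 for HXT3, -0.54 to 0.41 for HXT7, -0.21 to 1.35 for HXT10 and -0.27 to 0.16 for HXT5. Between the thiones HXT7 had -0.038 with the replicate block and HXT4 -0.0024 with the compared groups alone. Depth limits HXT1, HXT8 and HXT9, whose counts of 0 to 11 allow no statement on change.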
